A study of Mus musculus with 18 samples.

Results

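The transcriptional response to MRTFA was compared between a mouse mammary tumour line, E0771, and a mouse melanoma line, B16F10. For each gene the MRTFA effect, the log2 level in MRTFA libraries minus that in control libraries, was taken in each line, and the B16F10 effect was subtracted from the E0771 effect. The result, called the line difference here, is positive where MRTFA raised a gene more, or lowered it less, in E0771. It uses 12 of the 18 libraries of the study, in 4 groups of 3: E0771 with MRTFA, E0771 with the control vector, B16F10 with MRTFA and B16F10 with the control vector. The other libraries carried MRTFB. All cells were of the C57BL6 strain and carried pRetrox, and all groups, the controls included, received doxycycline at 500 ng/mL for 48 h to induce the transgene. RNA was extracted in bulk, so fewer cells expressing a gene and less RNA per cell cannot be told apart. The labels do not say whether the transduced cells of a line were 1 clone or a pool, or whether replicates were separate cultures, and p-values measure only the spread between these samples. Levels are in scaled reads, the authors' read counts per gene divided by a size factor of the library. They are not corrected for gene length, so levels are compared between groups and not between genes.

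MRTFA, listed in the table under its older symbol Mkl1, is a coactivator of serum response factor (SRF). Monomeric actin binds MRTFA and keeps it in the cytoplasm, and assembly of actin into filaments frees it to enter the nucleus, where it joins SRF at a DNA element named the CArG box. Genes activated in this way include actins, actin-binding proteins, focal adhesion proteins and the contractile proteins of smooth muscle. B16F10 cells are pigment cells by origin and E0771 cells are epithelial, so each line starts from its own pattern of expressed genes.

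Library depth ranged from 29928592 to 37116655 reads. Summed over 6 melanocyte markers (Tyr, Tyrp1, Dct, Pmel, Mlana and Sox10), E0771 libraries held 137 to 162 scaled reads and B16F10 libraries 578229 to 741349. Of the mammary epithelial markers in the table, Krt7, Krt8, Krt19, Epcam and Cdh1 together had 14987 to 17027 scaled reads in E0771 MRTFA libraries. In E0771 controls they had 5820 to 7901, so their sum was higher with MRTFA. B16F10 libraries held 96.2 to 156 with MRTFA and 33.4 to 77.0 without, so each line matched its label. Epcam, which defines epithelial cells, was low in E0771 itself, at 32.9, 18.6 and 49.1 scaled reads in MRTFA libraries and 30.2, 27.0 and 69.1 in control libraries. The third B16F10 control library stood apart for contractile genes. In it 8 of 20 smooth muscle genes were more than 2-fold above the mean of the other B16F10 controls, against 3.63% of all tested genes, and no other library stood above its group in more than 3 of the 20. Several results are given with and without it, though not every one that it moved.

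The gene of the transgene was measured first. Mkl1 (chr15:81012281-81190757, coordinates in GRCm38 from GENCODE M21 throughout) had 12469, 16556 and 12159.7 scaled reads in E0771 MRTFA libraries and 1124, 1514 and 1408 in E0771 control libraries, a rise of 10.2-fold. In B16F10 it had 1398, 902 and 1314 scaled reads in MRTFA libraries and 1109, 987 and 949.7 in control libraries, where the groups overlapped and the effect was not called (1.19-fold, limma adjusted p = 0.918). The line difference for Mkl1 was 3.12 on the log2 scale (95% interval 2.59 to 3.65, limma adjusted p = 4.09e-06). Every line difference below was therefore measured together with a far larger gain of Mkl1 reads in E0771, and the cell line and the amount of transgene cannot be told apart. The labels do not give the species of the transgene, and how far its reads were counted at Mkl1 was not tested.

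Partners of MRTFA differed between the lines as well. Srf, the DNA-binding partner, reached 11632, 13443 and 11319.5 scaled reads in E0771 MRTFA libraries against 1684, 3317 and 3370.4 in E0771 controls, with no overlap. In B16F10 it had 2067, 1553 and 2369 scaled reads in MRTFA libraries and 1315, 1520.0 and 1576 in controls, and its effect there was not called (limma adjusted p = 0.693). The line difference for Srf was 1.76 (SE 0.33, limma adjusted p = 0.00254). Elk1, a cofactor that competes with MRTFA for SRF, rose 4.42-fold in E0771 and had a fold of 1.25 in B16F10 (line difference 1.83, limma adjusted p = 1.3e-05). Mkl2, which encodes the related coactivator MRTFB, showed no called line difference (-0.42, 95% interval -0.85 to 0.02), although without B16F10 control 3 it was called (-0.59, limma adjusted p = 0.0268).

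Tmsb4x, which encodes a peptide that sequesters monomeric actin, moved in opposite directions. It had 15916, 14867 and 14356 scaled reads in E0771 MRTFA libraries against 3366, 2097 and 2501 in E0771 controls, and 101, 128 and 235 in B16F10 MRTFA libraries against 669, 561 and 757 in B16F10 controls. The groups did not overlap in either line. The effects were 2.53 in E0771 and -2.17 in B16F10 on the log2 scale, and the line difference was 4.70 (SE 0.36, limma adjusted p = 3.71e-06). Of the 20 tested genes of the list of MRTF-SRF pathway components, 9 had a higher MRTFA effect in E0771, where 12.2% of all 14645 tested genes did. These 9 include Mkl1, the gene of the transgene itself. The list median was 0.39 for the E0771 effect and 0.09 for the B16F10 effect. Over all tested genes the median was 0.00 for the E0771 effect and -0.00 for the B16F10 effect. Without E0771 MRTFA 2, 6 of the 20 were higher.

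Across all tested genes the response of E0771 was the broader. MRTFA raised 2902 genes (19.8%) and lowered 2408 (16.4%) in E0771, and raised 365 (2.49%) and lowered 44 (0.3%) in B16F10, each at a limma adjusted p under 0.05. In all, 36.3% of tested genes were called in E0771 and 2.79% in B16F10. The 44 genes lowered in B16F10 became 25 and 22 without B16F10 MRTFA 1 and 2, and 13, 12 and 81 without B16F10 control 1, 2 and 3. With the replicate number as a block within each line they were 107. The line difference itself was called for 2813 genes, 19.2% of those tested, of which 1783 (12.2%) had the higher effect in E0771 and 1030 (7.03%) the lower one. Higher calls were 63.4% of all calls, but 50.7% under upper-quartile scaling, which gave 1638 higher and 1590 lower calls. Large differences were mostly in one direction, as 1192 of the higher calls and 167 of the lower ones reached 2-fold. The counts of this paragraph include 680 genes under 10 scaled reads in both control groups, 265 of them called higher and 10 lower. These passed the filter through MRTFA libraries, so a fall with MRTFA could hardly be called in them. Leaving out E0771 MRTFA 2 cut the calls to 1797. The count of lower calls fell to 629 without E0771 MRTFA 1, 559 without E0771 MRTFA 2, 670 without E0771 control 1, 574 without B16F10 MRTFA 2 and 591 without B16F10 control 1.

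Most genes with a line difference responded in E0771 alone by the same threshold. Of the 2813, 2508 had a called MRTFA effect in E0771 and none in B16F10, with a median effect of 0.71 in E0771 and 0.03 in B16F10. Without E0771 MRTFA 2 there were 1618 such genes. The effect was called in B16F10 alone for 52 genes, or 99 without B16F10 control 3 and 34 without B16F10 MRTFA 2 or B16F10 control 1. Both lines moved in the same direction with the larger effect in E0771 for 140 genes, or 90 and 86 without E0771 MRTFA 1 and 2, and with the larger effect in B16F10 for 12 genes. The directions were opposite for 15 genes, or 35 without B16F10 control 3, 9 without B16F10 MRTFA 2, and 7 without B16F10 control 1 or 2. For the remaining 86 genes neither effect was called on its own, a count of 57 and 38 without E0771 MRTFA 1 and 2, 32 without B16F10 MRTFA 2, and 31 and 35 without B16F10 control 1 and 2.

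Most genes raised in B16F10 were raised in E0771 too, where 19.8% of all tested genes were raised. MRTFA raised 302 genes in both lines (2.06% of all tested genes), which was 82.7% of the genes raised in B16F10 and 10.4% of those raised in E0771. Genes under 10 scaled reads in both control groups made up 177 of the 365 raised in B16F10 and 444 of the 2902 raised in E0771. Among these 302 genes, 139 rose further in E0771, 12 rose further in B16F10 and 151 had no called line difference. Their median effect was 4.30 in E0771 and 2.70 in B16F10. Of the 44 genes lowered in B16F10, 6 were lowered in E0771, 12 were raised there and 26 were not called there. Over all tested genes 16.4% were lowered and 19.8% raised in E0771. With 44 genes the counts are not read as departing from these shares. Across genes, which are not independent replicates, the 2 effects had a Pearson correlation of 0.56 and a Spearman correlation of 0.16 over 14645 genes, and no library entered both effects. In the plot of one effect against the other, the called genes spread upward from the centre at B16F10 effects near 0, and a sparser set follows or falls below the line of equal effects.

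**Figure D1:**
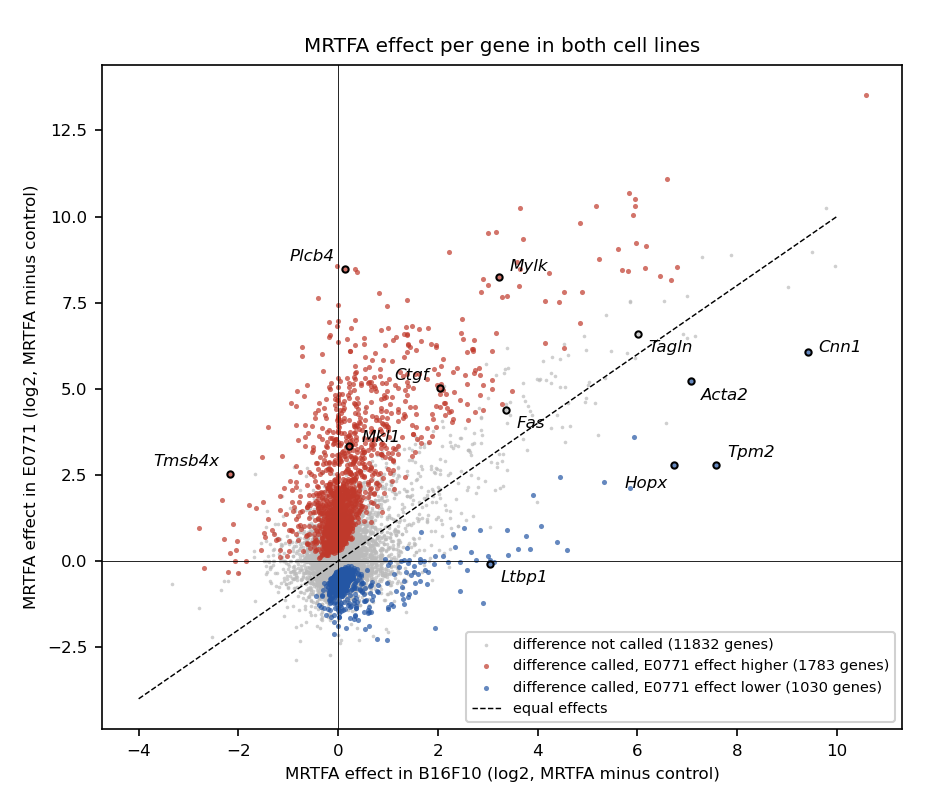
MRTFA effect of each of 14645 tested genes in B16F10 (x axis, log2) and in E0771 (y axis, log2), with called line differences in red (1783 genes, higher in E0771) and blue (1030 genes, lower in E0771). Plcb4 lies at an effect of 8.47 in E0771 and 0.14 in B16F10, while Tpm2 lies to the right of the dashed line of equal effects, at 2.79 in E0771 and 7.59 in B16F10.

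Promoter sequences were examined for the CArG box, since it is the element through which SRF binds. RefSeq promoters (GRCm38.p6, from 250 bases before to 50 bases after the gene start) were matched to 10708 of the 14645 tested genes, and 182 of them (1.70%) held the box, whose consensus reads alike on both strands. It was present in 23 of 209 promoters (11%) of genes raised in both lines. Among genes raised in E0771 and not in B16F10 with a called line difference, 54 of 1202 promoters (4.49%) held it. Genes lowered in E0771 had it in 6 of 1945 promoters (0.308%). By the line difference, 66 of 1349 promoters (4.89%) of the higher calls and 4 of 853 (0.469%) of the lower calls held the box. In the list of MRTF-SRF actin cytoskeleton genes it was found in 9 of 30 promoters, and in the smooth muscle list in 2 of 15.

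The following stretches, written 5′ to 3′ on the gene's strand with the CArG box in capitals, come from genes of those 2 lists. They show boxes of genes that responded in both lines beside boxes of genes that responded in E0771 alone. The smooth muscle genes were taken by a rule and the cytoskeletal ones were added after their values were seen. Myl9, a myosin light chain of smooth muscle, and Ldb3, a Z-disc protein, were raised in both lines.
Myl9: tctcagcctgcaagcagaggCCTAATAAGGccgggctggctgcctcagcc
Ldb3: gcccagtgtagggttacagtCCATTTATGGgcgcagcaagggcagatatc
Fhl1, a LIM-domain protein of muscle, and Vcl, which encodes vinculin of focal adhesions, were also raised in both lines.
Fhl1: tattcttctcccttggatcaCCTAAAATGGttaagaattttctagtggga
Vcl: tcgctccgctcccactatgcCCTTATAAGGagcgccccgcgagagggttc
Lima1, which crosslinks actin filaments, Filip1l, and Srf itself were raised in E0771 and not called in B16F10.
Lima1: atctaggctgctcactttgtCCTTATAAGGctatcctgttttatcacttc
Filip1l: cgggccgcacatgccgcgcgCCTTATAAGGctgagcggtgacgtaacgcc
Srf: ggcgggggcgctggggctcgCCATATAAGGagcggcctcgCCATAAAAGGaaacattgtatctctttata
The stretches lie at chr2:156775283-156775332 (Myl9, plus strand), chr14:34588687-34588736 (Ldb3, minus), chrX:56779561-56779610 (Fhl1, plus), chr14:20929151-20929200 (Vcl, plus), chr15:99820167-99820216 (Lima1, minus), chr16:57549160-57549209 (Filip1l, plus) and chr17:46556195-46556264 (Srf, minus).

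Vcl, Lima1 and Filip1l carry a box of identical letters, and their responses differed in B16F10. Vcl had 18970.5, 22973 and 19396 scaled reads in E0771 MRTFA libraries against 2353, 3886 and 4429 in E0771 controls, and 3748, 2872 and 4483 in B16F10 MRTFA libraries against 1593, 1669 and 2065 in B16F10 controls. Its effect was 2.57 in E0771 and 1.04 in B16F10 (limma adjusted p = 0.0164 in B16F10), with a line difference of 1.52 (limma adjusted p = 0.00426). Lima1 had 12618, 12587 and 13818 scaled reads in E0771 MRTFA libraries against 1478, 1662 and 2117 in E0771 controls, and 7007, 6607 and 7785 against 6659, 6472 and 7412 in the corresponding B16F10 libraries. In B16F10 the Lima1 groups overlapped, and both stood between the E0771 control and E0771 MRTFA levels. The Lima1 effect was 2.91 in E0771 and 0.06 in B16F10, with a line difference of 2.85 (limma adjusted p = 5.99e-07). Filip1l had effects of 2.53 and 0.26 in E0771 and B16F10, with a line difference of 2.27 (limma adjusted p = 1.5e-05). The box of Vcl starts 227 bases before the gene start, that of Lima1 47 bases and that of Filip1l 62 bases before it. A match of letters does not show binding, and nothing was measured here on SRF occupancy.

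The genes with the largest higher effects in E0771 were nearly silent in E0771 controls. They were chosen by the size of the line difference. At these read levels a difference so large calls for a control value near the floor, so the low baseline largely follows from the choice. Plcb4 (chr2:135659011-136014593), a phospholipase C that acts downstream of receptors coupled to Gq, had 1724, 2027 and 1444 scaled reads in E0771 MRTFA libraries against 2.01, 4.01 and 6.54 in E0771 controls. In B16F10 it had 1655, 1953 and 2196 scaled reads in MRTFA libraries and 1689, 1694 and 1858 in controls. E0771 thus came up to about the B16F10 level, and the B16F10 groups overlapped. Its line difference was 8.33 (SE 0.37, limma adjusted p = 1.09e-07). Epb41l4b (chr4:56991972-57143437), a band 4.1 family protein, had the largest difference of all named genes, at 8.56 (SE 0.41, limma adjusted p = 1.52e-07). It had 518, 492 and 413 scaled reads in E0771 MRTFA libraries against 1.0, 0 and 0 in E0771 controls, and 909, 1059 and 667 against 975.4, 1046 and 647 in B16F10. With 1 read in all E0771 controls the ratio was 1457, with a counting interval of 261 to 57572.

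Further genes were also nearly silent in E0771 controls and rose there with MRTFA, to differing levels relative to B16F10. Dmd, which encodes dystrophin, the link from the actin cytoskeleton to the matrix, had 638, 675 and 498 scaled reads in E0771 MRTFA libraries against 2.01, 0 and 0.934 in E0771 controls, and 462, 511 and 569 against 422, 397 and 371 in B16F10 (line difference 8.01, limma adjusted p = 3.47e-07). Zdhhc15, a palmitoyltransferase, had 404, 464 and 471 scaled reads in E0771 MRTFA libraries against 0, 2.0 and 4.67 in controls. In B16F10 it stood at 1608, 1731 and 1532 with MRTFA and 1657, 1561 and 1646 without, so E0771 remained below B16F10 with MRTFA. The Zdhhc15 line difference was 7.44 (limma adjusted p = 6.37e-06), and 6.76 without E0771 control 1. Tnik, a kinase of Wnt signalling, and Col9a2, a collagen of cartilage, had line differences of 7.14 and 6.99. Lpar4, a receptor for lysophosphatidic acid, went past B16F10, with 1079, 889.9 and 1164 scaled reads in E0771 MRTFA libraries against 4.03, 4.01 and 4.67 in E0771 controls, and 71.6, 41.4 and 126 against 146, 98.3 and 60.1 in B16F10 (line difference 8.03, limma adjusted p = 1.28e-06). Fgl2, a fibrinogen-like protein, was at 0 in all E0771 controls and had 234, 347 and 541 scaled reads with MRTFA, at least 379-fold higher against a floor of 3 reads over the group. B16F10 libraries held at most 1 Fgl2 read, and edgeR did not call its line difference (adjusted p = 1).

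**Figure D2:**
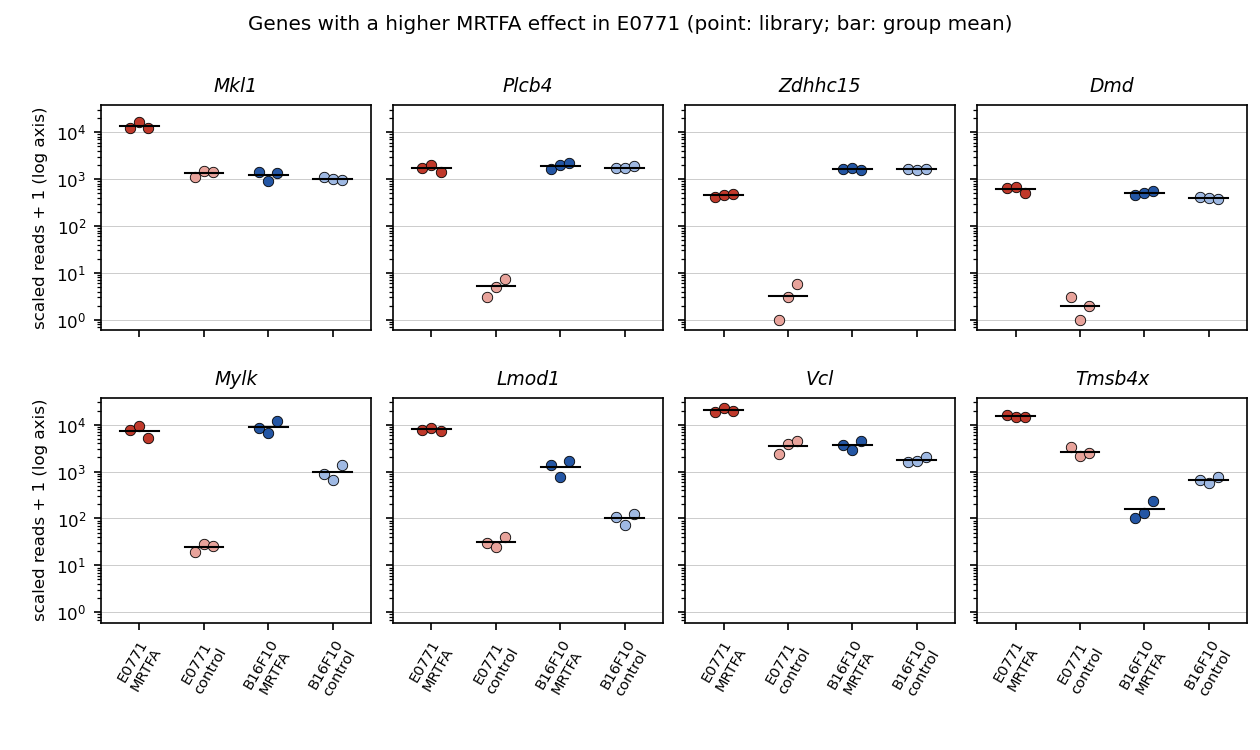
Scaled reads plus 1 (log axis) of 8 genes with a higher MRTFA effect in E0771, in each of the 12 libraries (points) with group means (bars). In the E0771 control groups Plcb4, Zdhhc15 and Dmd lie near the bottom of the axis, and their B16F10 groups lie level with each other.

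Most contractile genes rose in both lines, with line differences in both directions. All 20 tested genes of the smooth muscle list were raised in E0771 and 15 in B16F10, beside 19.8% and 2.49% of all tested genes. Their median effects were 5.26 in E0771 and 3.84 in B16F10. The line difference was called higher for 8 and lower for 3, or 5 without B16F10 control 3. Over all tested genes it was higher for 12.2% and lower for 7.03%. Mylk (chr16:34745210-35002420), the kinase that activates smooth muscle myosin, rose 322-fold in E0771 and 9.25-fold in B16F10. It had 7799, 9509 and 5179 scaled reads in E0771 MRTFA libraries against 18.1, 27.0 and 25.2 in E0771 controls, and 8414, 6559.5 and 12098 against 886, 646 and 1412 in B16F10, so the MRTFA groups overlapped between lines and the controls were far apart. For Mylk the line difference was 5.01 (SE 0.43, limma adjusted p = 8.05e-06). Lmod1, which nucleates actin filaments in smooth muscle, rose 255-fold in E0771 and 12.9-fold in B16F10 (line difference 4.36, limma adjusted p = 1.28e-05).

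Myl9 showed the larger rise in E0771. It had 37326, 39317 and 27320.3 scaled reads in E0771 MRTFA libraries against 493, 419.6 and 584 in E0771 controls, and 6872, 3684 and 10678 in B16F10 MRTFA libraries against 482, 426 and 2172 in B16F10 controls. Apart from B16F10 control 3, the highest of the controls, the 2 baselines were alike in size. The line difference was 3.03 (limma adjusted p = 0.0124) with it and 2.28 (limma adjusted p = 0.0053) without it.

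Tpm2, Cnn1 and Acta2 were the smooth muscle genes with the lower effect in E0771. Tpm2 (chr4:43514711-43523765), a tropomyosin that lies along actin filaments, had 28742, 29712 and 26692 scaled reads in E0771 MRTFA libraries against 3632, 4391 and 4326 in E0771 controls, and 4434, 2731 and 4893 in B16F10 MRTFA libraries against 17.3, 5.84 and 65.9 in B16F10 controls. B16F10 cells with MRTFA reached about the level of E0771 cells with the control vector. The line difference was -4.80 (SE 0.80, limma adjusted p = 0.0013), and -4.01 and -5.66 without B16F10 control 2 and without B16F10 control 3, in that order. Cnn1, which encodes calponin, had 2189, 1981 and 932 scaled reads in E0771 MRTFA libraries against 16.1, 32.0 and 22.4 in E0771 controls, and 1325, 799 and 1437 against 0, 0 and 3.82 in B16F10. Its line difference was -3.34 (limma adjusted p = 0.0106), -4.09 without B16F10 control 3 and -1.73 with a pseudocount of 5, as the B16F10 controls held 4 reads in all.

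Acta2 (chr19:34241090-34255590), smooth muscle actin, held the highest share of reads in E0771 MRTFA libraries, 1.99 to 2.36%. It had 716670.0, 813607 and 675541 scaled reads in E0771 MRTFA libraries against 23963, 16568 and 18722 in E0771 controls, a fold of 37.4. In B16F10 it had 58811, 37313 and 72885 scaled reads with MRTFA against 463, 176 and 798 in controls, a fold of 118. The line difference of -1.84 passed the threshold narrowly (limma adjusted p = 0.0438). The call was lost without any 1 of the E0771 libraries, without B16F10 MRTFA 1 or 3 and without B16F10 control 1, with limma adjusted p up to 0.1. The call was also lost with all 18 libraries. Without B16F10 control 2 the line difference was -1.25, and over all alternatives it ran from -2.33 to -1.25.

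Outside the contractile genes, Col3a1, Hopx and Pnma5 also had a lower effect in E0771, whose controls already expressed them. Col3a1, a fibrillar collagen, had 10482, 10759 and 11128 scaled reads in E0771 MRTFA libraries against 1919, 3377 and 2391 in E0771 controls, and 270.2, 149 and 316 against 4.81, 0.974 and 4.77 in B16F10 (line difference -3.74, limma adjusted p = 0.000471). Hopx, a homeodomain protein that binds SRF, was at 0 in all B16F10 controls and had 97.8, 84.8 and 144 scaled reads in B16F10 MRTFA libraries, at least 114-fold higher. In E0771 it had 709, 701 and 649 scaled reads with MRTFA against 112, 119 and 71.0 in controls. The fitted line difference for Hopx was -3.95 (limma adjusted p = 1.43e-05), -1.73 with a pseudocount of 5 and -7.05 with edgeR. Pnma5 likewise rose less in E0771, with effects of 0.97 in E0771 and 2.53 in B16F10 (line difference -1.56, limma adjusted p = 0.00136).

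Some genes had a called effect in B16F10 alone. Ltbp1, which stores TGF-beta in the matrix, had 3326, 2942 and 4554 scaled reads in E0771 MRTFA libraries and 3983, 3028 and 4339 in E0771 controls, which overlapped. In B16F10 it had 512, 341 and 700.0 scaled reads with MRTFA against 52.9, 66.2 and 59.2 in controls, with no overlap (line difference -3.12, limma adjusted p = 4.51e-05). Pde2a, a phosphodiesterase of cyclic nucleotides, was level in E0771 at 2025, 2166 and 1540.2 scaled reads with MRTFA and 1879, 2106 and 1771 without. It had 38.3, 35.2 and 33.4 scaled reads in B16F10 MRTFA libraries against 2.89, 3.89 and 2.86 in B16F10 controls (line difference -3.14, limma adjusted p = 5.17e-06). Stbd1, a glycogen-binding protein, was raised 15.7-fold in B16F10, and E0771 libraries held 1 read of it in all. Its line difference (-3.51, limma adjusted p = 0.000224) was not called by edgeR or DESeq2. Dusp23, a phosphatase, had 126, 127 and 99.3 scaled reads in E0771 MRTFA libraries against 56.4, 62.1 and 61.7 in E0771 controls, which did not overlap, although the effect of 0.95 was not called (limma adjusted p = 0.0535). In B16F10 it fell to 0, 1.03 and 0.954 scaled reads in MRTFA libraries, against 12.5, 13.6 and 5.73 in controls.

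Other genes rose in both lines with no called line difference. Glipr2, a protein of the Golgi membrane, had 6209, 7610.4 and 6924 scaled reads in E0771 MRTFA libraries against 1814, 1789 and 2283 in E0771 controls, and 859, 806 and 937 against 259.7, 242 and 281 in B16F10. The rise was 3.52-fold in E0771 and 3.33-fold in B16F10, and the 95% interval of the line difference ran from -0.26 to 0.45. Tagln, which encodes the actin-binding protein transgelin of smooth muscle, had 41772, 48323 and 23674 scaled reads in E0771 MRTFA libraries against 484, 396 and 268 in E0771 controls, and 5796, 4425 and 6982 against 55.8, 43.8 and 265 in B16F10. Its line difference was not called (0.60, 95% interval -1.0 to 2.22, limma adjusted p = 0.617), and the estimate was -0.20 without B16F10 control 3. The interval leaves room for differences in either direction. Cbr2, a carbonyl reductase, Msrb3, a methionine sulfoxide reductase, and Cd248, which encodes endosialin, also rose in both lines without a called line difference. Their effects in E0771 were 5.04, 2.55 and 3.41, and in B16F10 4.45, 1.94 and 2.69. Without B16F10 control 3 the Cbr2 line difference was -0.05, against 0.60 with it. Fas, the death receptor, rose 20.9-fold in E0771 and 10.7-fold in B16F10. It had 869.6, 996 and 1039 scaled reads in E0771 MRTFA libraries against 41.3, 36.1 and 60.7 in E0771 controls, and 67.6, 43.5 and 54.4 against 1.92, 3.89 and 9.54 in B16F10, with a line difference of 1.02 (95% interval -0.17 to 2.21) that was called only with a pseudocount of 5, at 1.66. Over all alternatives the Fas estimate ran from 0.53 to 1.66.

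**Figure D3:**
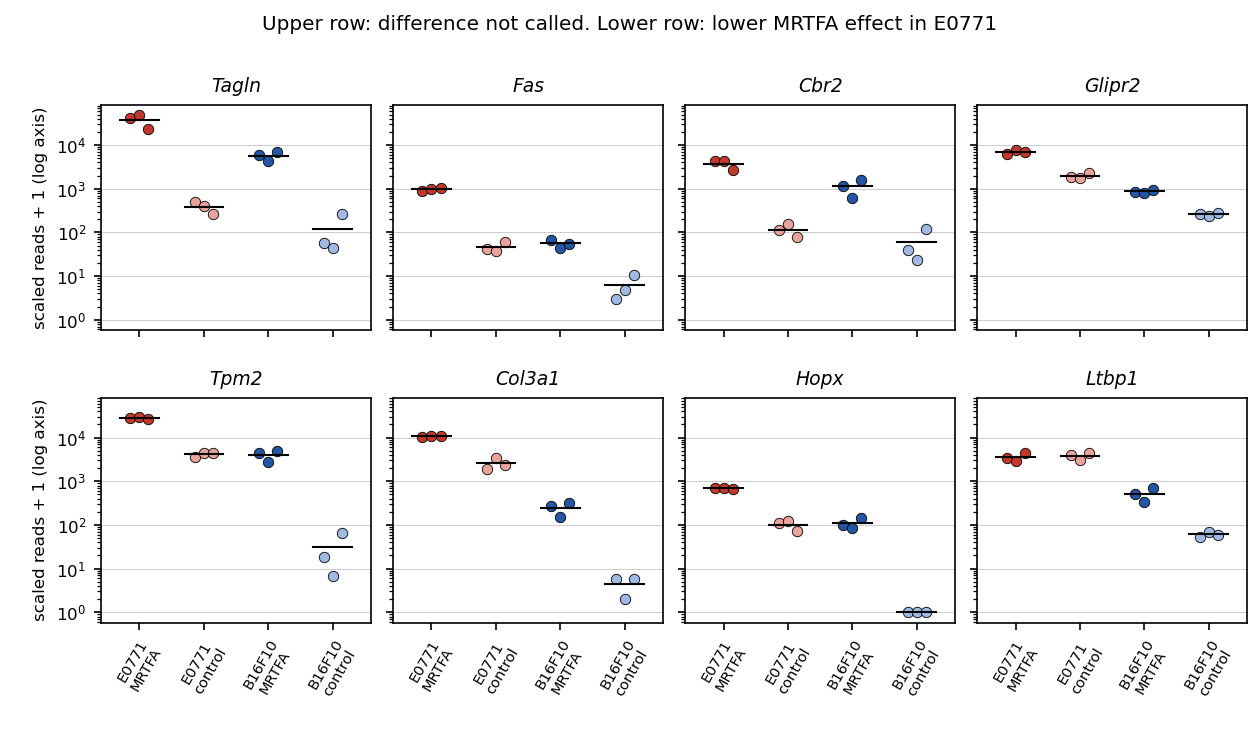
Scaled reads plus 1 (log axis) of 4 genes whose line difference was not called (upper panels) and 4 with a lower MRTFA effect in E0771 (lower panels), in each of the 12 libraries (points) with group means (bars). In the lower panels the E0771 control group lies far above the B16F10 control group, as for Tpm2 with means of 4116 in E0771 and 29.7 in B16F10.

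Besides Tmsb4x, genes that moved in opposite directions included Jup, Arhgef6 and Ccng2. Jup, which encodes plakoglobin of cell junctions, had 5379, 4984 and 3439 scaled reads in E0771 MRTFA libraries against 478, 751 and 470.0 in E0771 controls, and 298, 237 and 317 against 869, 1075 and 567 in B16F10 (line difference 4.55, limma adjusted p = 4.09e-06). Arhgef6, an exchange factor for Rac and Cdc42, had an effect of 3.05 in E0771 and -1.12 in B16F10. Ccng2, a cyclin linked to growth arrest, had 1.05 in E0771 and -0.76 in B16F10. The groups overlapped in neither line for any of these genes. Genes that rose in both lines and further in E0771 included Sdpr, a caveolar protein, with effects of 4.10 in E0771 and 0.54 in B16F10, and Trpv2, a calcium channel, with 3.89 and 1.0 in the same order. Ccna1, a cyclin of the germ line, was at 0 in E0771 controls and had 673, 896 and 700.1 scaled reads with MRTFA, at least 777-fold higher, while it rose 9.47-fold in B16F10. Optc, a matrix proteoglycan first known from the eye, had 954, 1212 and 869 scaled reads in E0771 MRTFA libraries against 1.0, 1.0 and 0.934 in controls, and rose 4.90-fold in B16F10.

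Gene lists were used to describe how functional groups differed. Over all tested genes, 12.2% had a higher and 7.03% a lower effect in E0771. Among cytoskeletal targets of MRTF-SRF, 23 of 32 genes had a higher effect in E0771 and 1, Tpm2, a lower one, with median effects of 1.82 in E0771 and 0.37 in B16F10. MRTFA raised 30 of the 32 in E0771 and 5 in B16F10, beside 19.8% and 2.49% of all tested genes. Actb, cytoplasmic actin, had 371127, 375292 and 352333 scaled reads in E0771 MRTFA libraries against 117347, 134757 and 140825 in E0771 controls, and 124173, 101721 and 129090.0 against 82674, 88300.5 and 95887 in B16F10. Its line difference was 1.08 (limma adjusted p = 0.00103). Pdlim5, a scaffold of the Z-disc and actin fibres, rose 9.01-fold in E0771, and its fold in B16F10 was 1.42 (line difference 2.72). Tpm1, a tropomyosin, rose 5.79-fold in E0771 and 1.76-fold in B16F10 (line difference 1.73).

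Adhesion and matrix genes were less uniform. They are set beside the 12.2% of all tested genes that were higher and the 7.03% that were lower. Among 23 integrin and focal adhesion genes, 10 had a higher effect in E0771 and 3 a lower one, with medians of 0.80 in E0771 and 0.12 in B16F10. Itga5, the fibronectin receptor subunit, had 37590.5, 41089.5 and 35029.7 scaled reads in E0771 MRTFA libraries against 4151, 3921 and 3931 in E0771 controls, and 4458, 2772 and 4904 against 1964, 1778 and 1627 in B16F10. It rose 9.51-fold in E0771 and 2.28-fold in B16F10 (line difference 2.10, limma adjusted p = 6.24e-05). Itga1, a collagen receptor subunit, rose 19.1-fold and 3.01-fold in E0771 and B16F10, and Fermt2, which activates integrins, had a line difference of 1.15. The lower calls were Itgb5 (-0.90), Itgb7 (-2.59) and Itga3 (-3.30), of which Itgb7 was lost without E0771 MRTFA 1 or 2, E0771 control 3, B16F10 MRTFA 2 or 3 or B16F10 control 1 and by edgeR, and Itga3 without any 1 library other than B16F10 MRTFA 1 or B16F10 control 3. Itga3 was -4.36 without B16F10 control 3, and Itgb7 was -3.25 without B16F10 MRTFA 1. Of 24 extracellular matrix genes 4 were higher, Fbn1 (3.27), Lamb1 (3.6), Thbs2 (2.67) and Col4a1 (1.05, lost without any 1 library other than E0771 MRTFA 3, E0771 control 2, B16F10 MRTFA 1 or 3 or B16F10 control 2), and Col3a1 was lower. These matrix counts lie near the shares over all tested genes. Fbn1, fibrillin of elastic fibres, rose 259-fold in E0771 and 26.6-fold in B16F10.

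Ctgf and Cyr61, matrix-associated proteins that respond to both MRTF and YAP, were among the YAP-TAZ targets. Ctgf had 27576, 36449 and 36482 scaled reads in E0771 MRTFA libraries against 965, 1036 and 1082 in E0771 controls, and 4123, 4229 and 8625 against 796, 1037 and 2654 in B16F10 (line difference 2.98, limma adjusted p = 0.0019). The lowest Ctgf line difference among the alternatives was 2.47. Cyr61 had 24356, 35057 and 42462 against 5498, 7293 and 9249.8 in the E0771 groups and 3745, 3345 and 6604 against 1979, 1998 and 3758 in the B16F10 groups. Its line difference of 1.38 (limma adjusted p = 0.0446) was lost without any 1 of E0771 MRTFA 2 or 3, E0771 control 1 or 2, B16F10 MRTFA 1 or 2 and B16F10 control 3, by DESeq2, under upper-quartile scaling and with all 18 libraries, with adjusted p up to 0.113. Of the 20 tested YAP-TAZ targets 9 were higher, or 5 without B16F10 MRTFA 2, where 12.2% of all tested genes were. The 2 lower ones, where 7.03% of all tested genes were lower, were Ankrd1 and Wwc1. Ankrd1 (-2.32, or -2.90 without B16F10 control 3) was lost with all 18 libraries (limma adjusted p = 0.115). Wwc1 (-0.46) was lost with no filter and without any 1 library other than E0771 control 1. Dlc1, Crim1 and F3 (tissue factor) had line differences of 1.62, 1.46 and 1.15.

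In the striated muscle list, 6 of 17 genes were higher and 2 lower, Ankrd1 and Xirp1 (-1.95). By edgeR 3 were higher and 1 lower, by DESeq2 4 and 1, and with all 18 libraries 0 were lower. The Xirp1 call was lost by edgeR and DESeq2, with a pseudocount of 5, with no filter and with all 18 libraries. It was also lost without any 1 library other than E0771 MRTFA 3, B16F10 MRTFA 1, 2 or 3 or B16F10 control 1. Myh13, a myosin of eye muscle, was at 0 in both control groups and had 1769, 1702 and 682 scaled reads in E0771 MRTFA libraries and 43.4, 66.2 and 79.2 in B16F10 MRTFA libraries. That was at least 1432-fold higher in E0771 and at least 65.6-fold higher in B16F10, and edgeR and DESeq2 did not call its line difference. Nebl, nebulette of the Z-disc, had 5.98, 13.0 and 14.6 scaled reads in E0771 MRTFA libraries and was at 0 in E0771 controls. In B16F10 it had 102, 120.0 and 76.3 scaled reads in MRTFA libraries against 263, 204 and 94.5 in controls. Immediate early genes, which SRF also controls, were higher in 7 of 20 cases. For both lists the shares over all tested genes were 12.2% higher and 7.03% lower. Fos rose 8.90-fold in E0771 and had a fold of 1.28 in B16F10 (line difference 2.92, limma adjusted p = 0.00177). Nr4a3, an orphan nuclear receptor, had a line difference of 3.80, and Egr3, a zinc finger factor, had 3.61 by limma but was not called by edgeR or DESeq2.

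**Figure D4:**
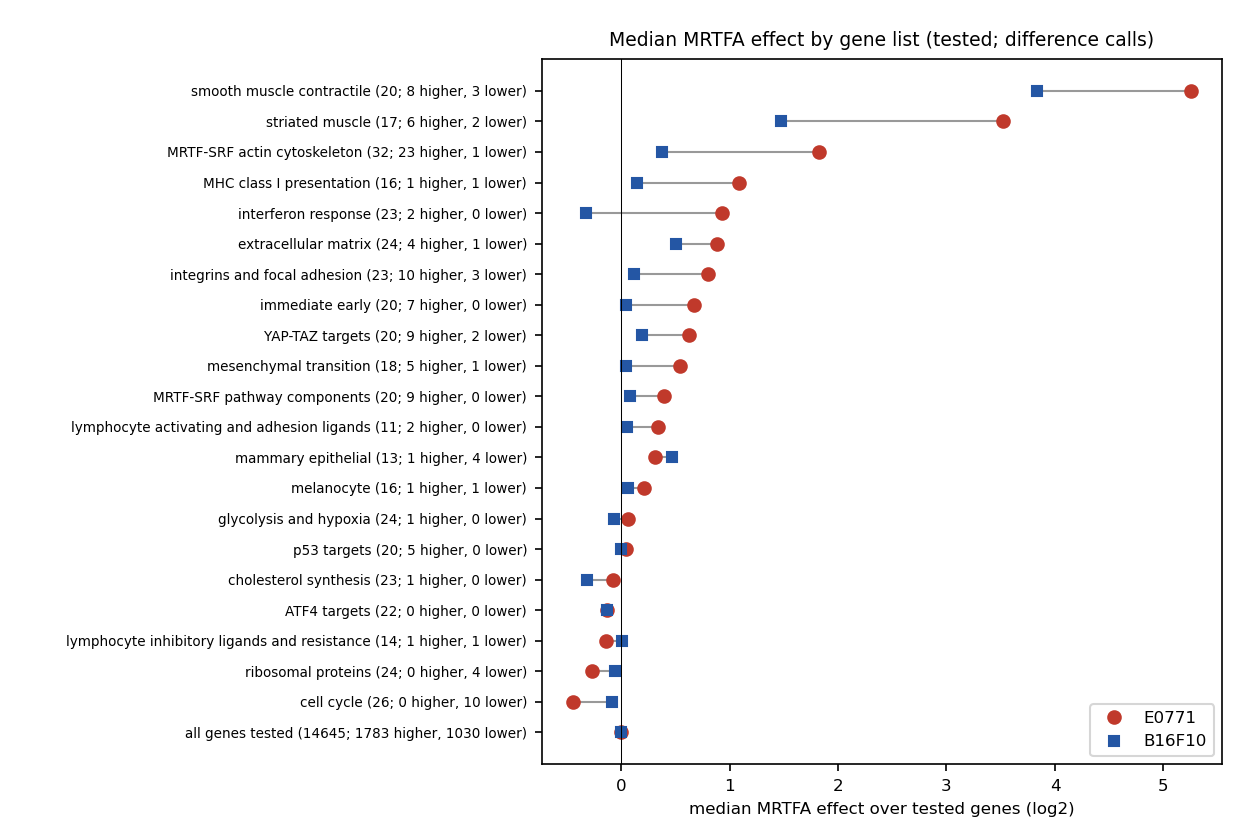
Median MRTFA effect (x axis, log2) in E0771 (red circles) and B16F10 (blue squares) over the tested members of each list with at least 10 of them, with the number tested and the called line differences in the labels. The smooth muscle list has the highest medians, 5.26 in E0771 and 3.84 in B16F10, and the cell cycle list the lowest in E0771, at -0.45 beside -0.08 in B16F10.

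Proliferation genes differed in the other direction. Of 26 cell cycle genes, 10 had a lower effect in E0771, where 7.03% of all tested genes did. MRTFA lowered 20 of them in E0771 itself, beside 16.4% of all tested genes. Ccne2, a cyclin of the G1 to S transition, had 1457, 1625 and 1809.8 scaled reads in E0771 MRTFA libraries against 3009, 2772 and 2862 in E0771 controls, and 2611, 2766 and 2072 against 2440.5, 2349.6 and 2019 in B16F10 (line difference -0.95, limma adjusted p = 0.00195). Mcm4, of the replicative helicase, and Ccnb2, a mitotic cyclin, had line differences of -0.64 and -0.76, and none of the 10 called genes differed by 2-fold. Ribosomal protein genes were lower in 4 of 24 cases, among them Rpl14 (-0.54), Rpl4 (-0.52) and Rpl3 (-0.38), of which Rpl4 was lost without E0771 MRTFA 1 or 2, E0771 control 1, B16F10 MRTFA 2 or B16F10 control 1, and Rpl3 without any 1 library other than B16F10 control 2. Rpl3 was also lost by edgeR and with a pseudocount of 0.5.

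Genes by which lymphocytes recognise or spare tumour cells are given beside the 12.2% of all tested genes that were higher and the 7.03% that were lower. Of 11 activating and adhesion ligands 2 were higher, the death receptor Tnfrsf10b (1.91) and Pvr (1.33), a ligand of DNAM-1. Pvr had 7262, 8759 and 10552 scaled reads in E0771 MRTFA libraries against 2821, 3033 and 4370.3 in E0771 controls, and 2511, 2476 and 2956 against 2447, 2429 and 2752 in B16F10. Of 14 inhibitory or resistance genes, the survival gene Bcl2 was higher (1.72) and the galectin gene Lgals3 lower (-2.39). In MHC class I presentation 1 of 16 was higher, Tapbp (1.37, lost by edgeR, with all 18 libraries and without any 1 library other than E0771 control 3, B16F10 MRTFA 3 or B16F10 control 2), and 1 lower, the chaperone gene Canx (-0.63). For that list 4 genes were higher without B16F10 MRTFA 3 and 3 without E0771 control 3. It was 8 with a replicate block over both lines and 9 with a block within each line. In the interferon response list 2 of 23 were higher, Gbp2 (3.09) and Irf1 (1.18), while the estimate was above 0 for all 23, with medians of 0.93 in E0771 and -0.33 in B16F10. The count of higher genes was 8 with a replicate block over both lines and 12 with a block within each line. Gbp2 varied within groups, with 482, 419.9 and 1360.5 scaled reads in E0771 MRTFA libraries and 29.2, 25 and 87.8 in E0771 controls, and the third library was the highest in each of the 4 groups.

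Stress and metabolic genes are set against the same shares of all tested genes, 12.2% higher and 7.03% lower. Among p53 targets 5 of 20 were higher, Tnfrsf10b, Btg2 (1.84), Trp53inp1 (1.48), Phlda3 (1.0, lost without E0771 MRTFA 1 or 2, E0771 control 1 or 3 or B16F10 MRTFA 1 or 2) and Zmat3 (0.72). Of 24 glycolysis and hypoxia genes 1 was higher, the glucose transporter gene Slc2a1 (0.92, lost without E0771 MRTFA 2, B16F10 MRTFA 1 or 2 or B16F10 control 1 or 2), and 4 were higher without B16F10 control 3. Of the 22 ATF4 targets 0 were called by limma and by edgeR in either direction. At an unadjusted limma p under 0.05 there was 1 in each direction, as there was by DESeq2. Without E0771 MRTFA 3 or B16F10 control 3 limma called 1 of them higher, and without E0771 control 3 it called 1 lower. With a replicate block within each line it called 3 higher and 2 lower, and both a block over the 2 lines and the fit of all 18 libraries gave 1 in each direction. With no filter 1 was higher, and under upper-quartile scaling 1 was lower. Mesenchymal transition genes were higher in 5 of 18 cases and lower in 1, Vim (-0.75). Of the higher ones, Snai2 (3.67, or 4.46 without E0771 control 3), a repressor of epithelial genes, and Mmp14 (1.62), a membrane protease, rose in E0771 alone, and the others were Cdh2, Tgfb2 (1.79) and Tgfbr1 (0.58, lost without any 1 library other than E0771 MRTFA 1, E0771 control 2 or 3, B16F10 MRTFA 2 or B16F10 control 3).

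Among lineage genes, 2 of 16 melanocyte and 5 of 13 mammary epithelial genes had a line difference called by limma, where 19.2% of all tested genes did. By edgeR and by DESeq2, 0 mammary epithelial genes were higher and 2 lower, and 1 melanocyte gene was called in each direction. Of the melanocyte genes, Rab27a, which moves melanosomes, was higher and Mitf, the melanocyte master regulator, lower. Rab27a had 1321, 1452 and 1179.7 scaled reads in E0771 MRTFA libraries against 52.4, 43.1 and 72.9 in E0771 controls, and 6018, 6227 and 6652 against 5314, 5338 and 7223 in B16F10, where the groups overlapped (line difference 4.46, limma adjusted p = 3.47e-07). Mitf had 235, 213 and 245 against 419.9, 449 and 475 scaled reads in the E0771 groups and 15268, 13205 and 14244 against 15877, 11745 and 16398 in the B16F10 groups (line difference -0.92, limma adjusted p = 0.00251). Of the mammary epithelial genes, Lcn2 was higher (2.33, lost without E0771 MRTFA 1 or 2, E0771 control 1 or 2, B16F10 MRTFA 2 or B16F10 control 3) and Krt7 (-1.99), Krt14 (-2.11, lost without any 1 library other than B16F10 MRTFA 2 or B16F10 control 3), Krt19 (-2.0) and Erbb3 (-0.80, lost without E0771 MRTFA 1 or B16F10 MRTFA 2) were lower. Krt14 was -2.72 without B16F10 control 3. Krt14, Krt19 and Lcn2 were not called by edgeR or DESeq2, and Lcn2 was also lost with a pseudocount of 0.5. Krt7, a keratin of simple epithelia, rose 3.78-fold in E0771 and 20.1-fold in B16F10, where its mean was 57.4 scaled reads with MRTFA and 2.89 without. Markers of other cell types gave few values. Of 12 immune markers 4 were in the table and 2 could be tested. Coro1a, a coronin of leukocytes, was higher (4.53), at 116 to 148 scaled reads in E0771 MRTFA libraries, against no more than 4.67 in E0771 controls. Cd4, which defines a class of T cells, was at 0 to 2.86 scaled reads in all 12 libraries. The summed immune markers had 223 to 239 scaled reads in E0771 MRTFA libraries, against 106 to 194 in E0771 controls, and 41.3 to 79.2 in B16F10 MRTFA libraries, against 12.7 to 62.0 in B16F10 controls. Of 11 endothelial and fibroblast markers 7 were in the table, 5 could be tested and 2 were lower, Pdgfra (-1.57) and Egfl7 (-0.74, lost without any 1 library other than E0771 control 1 or B16F10 control 3). Their sum was 2327 to 2476 scaled reads in E0771 MRTFA libraries, against 2828 to 3338 in E0771 controls, and 946 to 1510 in B16F10 MRTFA libraries, against 871 to 1657 in B16F10 controls. Cdh5, a cadherin that defines endothelial cells, was at no more than 11.5 scaled reads in any of them. The part of these markers in the results was not tested.

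The line difference was then set against each gene's baseline in the 2 control groups. The baselines differed widely, as 69.7% of tested genes differed between E0771 and B16F10 controls, 4860 (33.2%) higher and 5348 (36.5%) lower in E0771. With MRTFA in both lines 70.7% differed, and 5124 genes (35%) were higher and 5235 (35.7%) lower in E0771. Because the control libraries enter both the baseline and the line difference, a chance high control value would by itself give a smaller effect in that line. The shares below were therefore also computed with the baseline read from the MRTFB libraries of each line, which enter no part of the line difference. Those libraries carried a related coactivator, so they are not an untreated baseline.

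Genes with a mean of at least 10 scaled reads in both control groups numbered 11321, and 10.9% of them had a higher and 8.26% a lower MRTFA effect in E0771. The share of lower calls was 4.93% and 4.40% without E0771 MRTFA 1 and 2, 5.28% without E0771 control 1, 4.47% without B16F10 MRTFA 2 and 4.57% without B16F10 control 1. Within this set the share of higher calls was largest where the E0771 baseline was far below that of B16F10. Where the E0771 baseline was over 8-fold below that of B16F10, 31.0% of 258 genes were higher, and 20.9% of 1365 genes were so where it was 2- to 8-fold below. Within 2-fold the share was 8.95% of 8338 genes. It was 9.68% of 1167 genes where the E0771 baseline was 2- to 8-fold above, and 3.63% of 193 genes where it was over 8-fold above. Without E0771 MRTFA 2 the share at 2- to 8-fold above was 6.43%, and without B16F10 control 3 that at over 8-fold above was 5.56%. With the baseline from MRTFB libraries the shares in the same order were 28.7%, 18.8%, 9.08%, 11.7% and 7.55%.

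Lower calls followed the opposite order less evenly. Their share was 5.43% where the E0771 baseline was over 8-fold below that of B16F10, 3.66% at 2- to 8-fold below and 8.44% within 2-fold. It was 12.3% at 2- to 8-fold above and 11.9% at over 8-fold above. With the baseline from MRTFB libraries it was 6.48%, 4.77%, 8.56%, 10.2% and 10.8%. The value at over 8-fold above was 19.2% without B16F10 control 3, and the shares of lower calls in the first 4 classes fell to 3.10%, 1.76%, 4.45% and 6.94% without B16F10 MRTFA 2. They were 3.49%, 1.83%, 4.43% and 6.51% without E0771 MRTFA 2, and 2.78%, 2.36%, 4.49% and 7.11% without B16F10 control 1. Without B16F10 control 2 the first 2 were 3.01% and 1.64%, and without E0771 control 3 the second was 2.35%. The share within 2-fold and that at 2- to 8-fold above were 4.93% and 6.86% without E0771 MRTFA 1, and 5.26% and 7.97% without E0771 control 1. No test was made of these shares, since genes are not replicates.

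**Figure D5:**
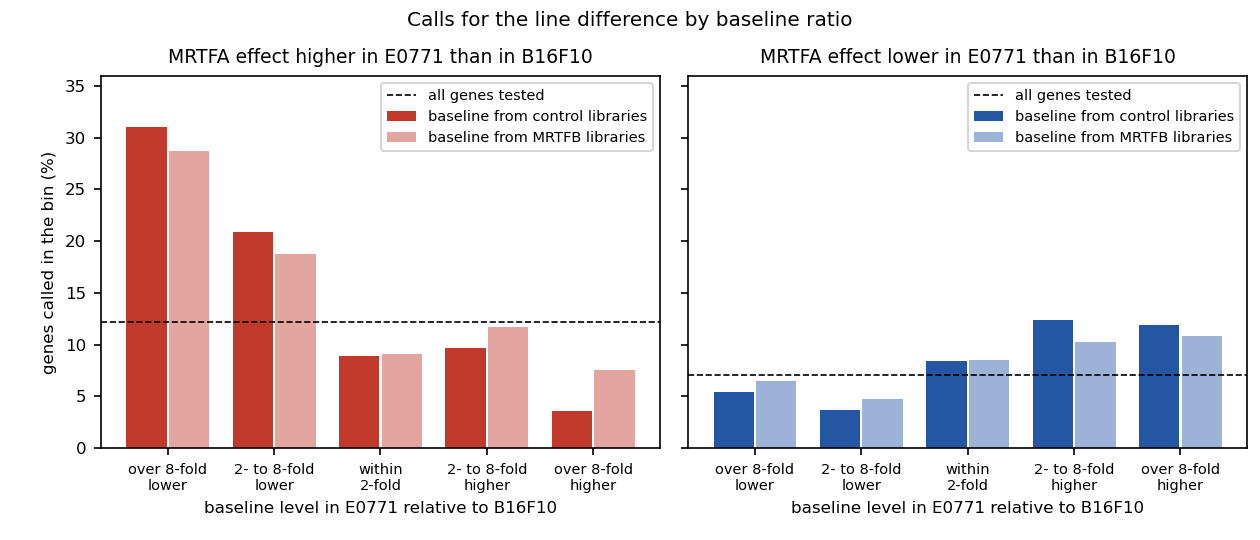
Share of genes (y axis, percent) called with a higher (left) or lower (right) MRTFA effect in E0771, by the ratio of E0771 to B16F10 baseline (x axis), for genes at 10 or more scaled reads in both lines. Dark bars take the baseline from control libraries and pale bars from MRTFB libraries, and dashed lines mark 12.2% and 7.03% of all tested genes.

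The 2 effects behind these shares moved separately. Among genes over 8-fold below B16F10 at baseline, MRTFA raised 39.5% in E0771 and 0.775% in B16F10, beside 19.8% and 2.49% of all tested genes. Among genes over 8-fold above B16F10 at baseline, it raised 24.4% in E0771 and 15% in B16F10. With the baseline from MRTFB libraries the shares raised were 38.9% in E0771 and 1.21% in B16F10 for the first class, and 23.1% in E0771 and 14.6% in B16F10 for the second.

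Genes expressed in only one line at baseline were counted in the same way. Of 1700 genes at 10 or more scaled reads in B16F10 controls only, 14.4% had a higher and 0.765% a lower effect in E0771. The share of lower calls was 0.475% and 0.415% without B16F10 MRTFA 1 and 2, and 0.479% and 0.468% without B16F10 control 1 and 2. Of 944 genes at that level in E0771 controls only, 4.45% had a higher and 7.63% a lower effect. Genes of each class lie near the floor in the controls of the other line, where a fall with MRTFA could less easily be called. MRTFA raised 379 and lowered 32 of the 1700 in E0771, and raised 77 and lowered 1 of the 944 in B16F10. The split by direction is therefore partly set by the floor. With the baseline from MRTFB libraries the shares were 14% higher and 0.981% lower for 1631 genes at that level in B16F10 only, and 5.62% higher and 5.94% lower for 926 genes in E0771 only. Without E0771 MRTFA 1 the share of higher calls among the 944 was 2.57%, and without E0771 MRTFA 2 the shares were 2.78% higher and 4.81% lower. A further 680 genes were under 10 scaled reads in both control groups and passed the filter through MRTFA libraries, so their share of calls is not read. Esam, an adhesion molecule of endothelium and platelets, is an example from E0771 controls only, with 915, 1188 and 1311 scaled reads in E0771 MRTFA libraries against 10.1, 7.01 and 21.5 in E0771 controls, and 5.04, 5.17 and 7.63 against 1.92, 2.92 and 8.59 in B16F10. Gabra3, a GABA receptor subunit, is one from neither line, with 657, 828 and 1010.4 scaled reads in E0771 MRTFA libraries and 13.1, 9.31 and 14.3 in B16F10 MRTFA libraries. It was at 0 in B16F10 controls and had 1 read in E0771 controls, and edgeR did not call its line difference.

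The gap between the lines, E0771 minus B16F10, is given as a level only, since the line difference by which the genes were chosen is the change of that gap and fixes its direction. For the 1783 genes with a higher effect in E0771 the median gap was 0.77 with MRTFA and -0.41 in controls. For the 1030 genes with a lower effect in E0771 the median gap was -0.20 with MRTFA and 0.39 in controls. The size of the gap became narrower for 44.1% of the higher genes, 55.1% of the lower ones and 51.6% of the 11832 genes without a called line difference. With the baseline from MRTFB libraries these shares were 41.8%, 50.4% and 50.2%.

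The MRTFB libraries share the control libraries with the MRTFA comparison, so values are only set side by side. Fitted over all 18 libraries, the line difference of the MRTFB effect was called for 17 of 14859 genes, 15 higher and 2 lower in E0771. An unadjusted limma p under 0.05 was found for 811 genes, close to the share that this threshold gives with no effect. Slc7a2 had the largest called MRTFB line difference in size, at -4.41. The genes below are examples from the 17 that were named above for MRTFA. Tmsb4x had a line difference of 4.70 for MRTFA and 3.08 for MRTFB, Jup 4.55 and 2.74, and Optc 6.76 and 3.30. Dmd had 8.01 for MRTFA and 2.47 for MRTFB, and Pnma5 -1.56 and -1.60.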

How the data were processed

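RNA-seq of 18 libraries was deposited as a table of 18909 genes, of which 12 libraries enter here. The deposited values are a signal: read counts per gene that the authors divided by a size factor for each library. The submitters' processing notes name cutadapt 1.6, STAR 2.5.0a, HTSeq 0.5.3, DESeq (version not given) and the mm10 build. In each library 100% of values were whole multiples of 1 step to within 0.01 reads, so whole reads were recovered. Total depth was 29928592 to 37116655 reads.

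Genes at 10 or more scaled reads in at least 3 of the 12 libraries (14645) were tested. A limma 3.58.1 model (R 4.3.3) with trend was fitted to log2(scaled reads + 1) over 4 groups. The line difference is the E0771 effect minus the B16F10 effect, and folds fitted on this scale understate changes of low genes. Tests were two-sided, with Benjamini-Hochberg adjustment over all tested genes and a threshold of 0.05. Printed folds are ratios of group means. Floors of 3 reads and count intervals (95%) cover counting error only. Recovered reads were also fitted with edgeR 4.0.16 (1480 genes called higher, 997 lower) and DESeq2 1.42.0 (1739 and 1319). The fit was tested on simulated data. Other pseudocounts, filters, scalings, the replicate block, all 18 libraries and each library left out were alternatives. Genes are expressed in a line at a mean of 10 or more scaled reads in its controls.

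Named genes were the pathway genes, a set of known targets, the largest and most significant differences by direction, response and baseline class, and up to 3 genes of each list. Members of small list counts, the promoters of cytoskeletal genes and Rpl3 were named after their values were seen. A few genes that the rule names are not reported here. The question and the lists were chosen with earlier results of these data known.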

Additional observations from a re-analysis of the deposited data

Results flagged for a closer look

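Line differences (E0771 effect minus B16F10 effect, log2) were tested directly, and 2813 genes passed at a limma adjusted p under 0.05. The values of the genes described above, grouped as there, are as follows. Among genes of the pathway itself, the line difference was Mkl1 3.12, Srf 1.76, Elk1 1.83 and Tmsb4x 4.70. Among the actin cytoskeleton and smooth muscle with a higher effect in E0771, the line difference was Actb 1.08, Vcl 1.52, Lima1 2.85, Filip1l 2.27, Pdlim5 2.72, Tpm1 1.73, Myl9 3.03, Mylk 5.01 and Lmod1 4.36. Among contractile and striated muscle genes with a lower effect in E0771, the line difference was Tpm2 -4.80, Cnn1 -3.34, Acta2 -1.84 and Xirp1 -1.95. Among genes nearly silent in E0771 controls, the line difference was Epb41l4b 8.56, Plcb4 8.33, Fgl2 8.13, Lpar4 8.03, Dmd 8.01, Zdhhc15 7.44, Tnik 7.14, Col9a2 6.99, Ccna1 6.39, Optc 6.76, Gabra3 5.66, Coro1a 4.53, Nebl 4.33 and Myh13 4.36. Among early response and YAP-TAZ genes, the line difference was Fos 2.92, Egr3 3.61, Nr4a3 3.80, Ctgf 2.98, Cyr61 1.38, Dlc1 1.62, Crim1 1.46, F3 1.15, Ankrd1 -2.32 and Wwc1 -0.46. Among adhesion and matrix genes, the line difference was Itga1 2.69, Itga5 2.10, Fermt2 1.15, Fbn1 3.27, Lamb1 3.6, Thbs2 2.67, Col4a1 1.05, Itga3 -3.30, Itgb5 -0.90, Itgb7 -2.59 and Col3a1 -3.74. Among genes that moved in B16F10 alone, in opposite directions or more in 1 line, the line difference was Jup 4.55, Arhgef6 4.17, Ccng2 1.81, Dusp23 3.74, Sdpr 3.57, Trpv2 2.89, Esam 5.97, Hopx -3.95, Ltbp1 -3.12, Pde2a -3.14, Stbd1 -3.51 and Pnma5 -1.56. Among immune recognition, interferon and survival genes, the line difference was Tnfrsf10b 1.91, Pvr 1.33, Bcl2 1.72, Lgals3 -2.39, Tapbp 1.37, Canx -0.63, Gbp2 3.09 and Irf1 1.18. Among lineage and mesenchymal genes, the line difference was Rab27a 4.46, Mitf -0.92, Lcn2 2.33, Krt7 -1.99, Krt14 -2.11, Krt19 -2.0, Erbb3 -0.80, Snai2 3.67, Mmp14 1.62, Tgfb2 1.79, Tgfbr1 0.58, Vim -0.75, Pdgfra -1.57 and Egfl7 -0.74. Among cell cycle, ribosomal, p53 and metabolic genes, the line difference was Ccne2 -0.95, Ccnb2 -0.76, Mcm4 -0.64, Rpl14 -0.54, Rpl4 -0.52, Rpl3 -0.38, Btg2 1.84, Trp53inp1 1.48, Phlda3 1.0, Zmat3 0.72 and Slc2a1 0.92. 

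The MRTFB libraries were outside the MRTFA comparison. In them the line difference was called for 17 genes by limma.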

How the results depend on the processing

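No called result changed direction under any alternative run. The line difference was called for 1359 genes (167 lower) when 2-fold was also required, for 4575 (2023 lower) with a replicate block within each line, and for 1590 lower under upper-quartile scaling. Requiring 2-fold left 1885 calls in E0771 (1705 higher, 180 lower), 29 lower calls in B16F10, 5599 between controls, 5802 between MRTFA libraries, 1036 genes called in E0771 alone and 131 in neither line. Of genes expressed in both lines, 5.65% were then higher and 0.654% lower. Each line fitted alone gave 225 calls in B16F10 (199 higher, 26 lower). The replicate block within line gave 107 lower calls in B16F10, and classes of 4016 (E0771 only), 95 (B16F10 only), 26 (larger in B16F10), 40 (opposite) and 189 (neither). Its shares higher and lower were 16.6% and 16.4% with expression in both lines and 8.05% and 13.3% with expression in E0771 only, and 1.65% were lower with expression in B16F10 only. The labels do not say what replicate numbers share. Deviations from the group means correlated at 0.285, 0.324 and 0.478 for same-numbered MRTFA and control libraries in B16F10, where other pairs gave -0.346 to 0.038, and at 0.056, 0.334 and 0.414 in E0771, where other pairs gave -0.403 to 0.181. In E0771 the first pair was under 0.1 (E0771 MRTFA 1 correlated best with control 2), so the line difference was not read as paired, while the B16F10 effect meets that minimum in all 3 pairs. A hint of pairing remains in both lines, and a replicate block over both lines gave 2035 higher and 1239 lower calls. Between the lines, same-numbered libraries correlated at 0.267, 0.051 and 0.15 for MRTFA and at 0.115, 0.083 and 0.174 for controls. DESeq2 gave 72 lower calls in B16F10, 19 genes larger in B16F10, 2.12% higher among genes expressed in E0771 only and 0.0588% lower among those in B16F10 only. edgeR gave 27 genes in B16F10 alone, 67 larger in E0771, 1.48% and 0.118% for the same shares. A minimum of 50 gave 34 genes in B16F10 alone and 9.03%, and a pseudocount of 5 gave 11.1%, higher among genes expressed in E0771 only. Upper-quartile scaling gave 13% lower with expression in both lines, and all 18 libraries gave 7 genes larger in B16F10. Leaving out 1 library gave 1797 to 2718 calls (1238 to 1757 higher, 559 to 1042 lower), 12 to 81 lower calls in B16F10, and classes of 1618 to 2455 (E0771 only), 34 to 99 (B16F10 only), 86 to 151 (larger in E0771), 8 to 18 (larger in B16F10), 7 to 35 (opposite) and 31 to 103 (neither). Shares lower were then 4.40% to 8.37% with expression in both lines, 4.81% to 8.69% in E0771 only and 0.415% to 1.13% in B16F10 only, and shares higher 2.57% to 5.62% in E0771 only. The cause of these changes was not tested. With 3 libraries a group, small differences and genes at a few reads were not resolved.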
